A study of Homo sapiens with 16 samples.

Results

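Expression of 10 genes of the NRF2 antioxidant pathway was measured by RNA-seq in 16 libraries labelled KG-1, an established human acute myeloid leukemia (AML) cell line of myeloblast-like cells. The genes were NFE2L2, KEAP1, HMOX1, FTH1, NQO1, OSGIN1, GCLM, GCLC, TXNRD1 and SRXN1. They were taken as a list of symbols, not by their values, and matched through GENCODE release 44 to the Ensembl identifiers of a table of 43836 genes. All 10 were in the table, and each had at least 2 counts in every library.

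The 16 libraries formed 8 conditions of 2 libraries each, which the study's methods describe as biological replicates. Control cells carried a lentiviral vector with a non-target shRNA and FOXM1-KD cells one with an shRNA against FOXM1, a forkhead transcription factor of proliferating cells. Both were selected with puromycin, so the control cells share the virus and the selection with the knockdown cells. Control cells received 0.3% DMSO, 50 μM STL427944, 0.75 μM cytarabine (AraC, a nucleoside analog) or 100 nM venetoclax (an inhibitor of BCL2), each for 48 h. A further control group received 30 μM MK-2206, an allosteric inhibitor of AKT, for 24 h, so that its treatment time differed from that of the DMSO cells together with the drug and the 2 cannot be told apart. FOXM1-KD cells received the same doses of DMSO, AraC or venetoclax for 48 h. The study asked how loss of AKT activity or of FOXM1 changes gene expression in AML cells and their response to these drugs.

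NRF2, the protein of NFE2L2, is a transcription factor that binds antioxidant response elements together with small MAF proteins. In unstressed cells KEAP1 holds NRF2 for ubiquitination and breakdown, so NRF2 activity is set mostly at the level of the protein and much less at that of its transcript. Electrophiles and oxidants modify KEAP1, NRF2 accumulates, and genes for glutathione synthesis, thioredoxin recycling, quinone reduction, heme breakdown and iron storage are transcribed. HMOX1 is in addition repressed by the heme-sensing factor BACH1. In AML, NRF2 target genes are known as part of the defence of leukemic cells against drugs and oxidants. Transcript levels alone were measured here.

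The response element is a short sequence, so stretches that hold its core letters near the start sites of these genes are shown. Promoter windows of RefSeq on GRCh38.p14, from 250 bases before to 50 after a start site, were present for 8 of the 10 genes; HMOX1 and FTH1 had no window. The core TGACNNNGC, searched on both strands, lay in 4 of the 11 windows of these 8 genes (those of KEAP1, GCLM and TXNRD1) and in 13.35% of all 35116 windows. The looser form TGANNNNGC, which includes every match of the first, lay in 7 of the 11 windows and in 41.84% of all windows. TGANTCA, the AP-1 site, lay in 1 of the 11, that of OSGIN1, and in 7.709% of all windows, and there it overlaps a match of the looser form. Printed are the matches of the core TGACNNNGC that, with their flanks, end before the start site. The OSGIN1 match of the looser form that overlaps the AP-1 site is added. A further core match in TXNRD1, at position -8 from the start, and the other looser matches are not printed. In the stretches that follow, capitals mark the matched letters, with 10 bases on each side, and the sign gives the strand printed. A match is a description of the letters and no evidence of binding.
GCLM, chr1:93909446-93909474 (+): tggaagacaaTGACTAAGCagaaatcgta
TXNRD1, chr12:104215670-104215698 (+): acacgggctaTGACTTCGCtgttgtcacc
TXNRD1, chr12:104286920-104286948 (-): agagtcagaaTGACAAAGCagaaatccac
KEAP1, chr19:10502807-10502835 (-): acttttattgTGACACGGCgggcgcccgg
KEAP1, chr19:10502784-10502812 (+): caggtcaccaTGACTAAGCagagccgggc
OSGIN1, chr16:83953131-83953159 (-): ttcataagcgTGAGTCAGCaggggcccgt
The GCLM and KEAP1 stretches on the + strand hold the same 9 letters, and the OSGIN1 stretch is the one that also holds the AP-1 letters.

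Several libraries stood apart before any pathway gene was considered. FOXM1, the targeted gene, had 48.8 to 121 CPM (counts scaled to library size, with TMM factors) in the 6 FOXM1-KD libraries, 112 to 181 CPM in the 8 control libraries without MK-2206 and 19.8 to 21.7 CPM with MK-2206. Against control cells given the same agent, FOXM1 was lower by edgeR's quasi-likelihood test, at 2-fold or more and an adjusted p under 0.1, in FOXM1-KD cells with DMSO (log2 fold change -1.08, adjusted p = 0.0560) and venetoclax (-1.20, adjusted p = 0.0113), and its change of -0.56 with AraC (adjusted p = 0.0124) was under 2-fold. CD34, a defining marker of KG-1, had 12483 to 28951 counts in those 8 control libraries, 7 and 18 with MK-2206 and 0 to 4 in the FOXM1-KD libraries. CD34 is on a list of 6 stem and progenitor markers. With DMSO, CD33, FLT3 and SPN of this list had more counts in FOXM1-KD than in control cells, and KIT and PROM1 fewer. The summed level of the 6 was 1219 to 2001 CPM in the 8 control libraries. It was 87.8 to 106 CPM with MK-2206 and 822 to 1447 CPM in FOXM1-KD cells. At 0 counts in all 8 of these control libraries were 54 genes with at least 100 counts in every FOXM1-KD library, and 99 genes showed the opposite; for MK-2206 these numbers were 61 and 20. Levels were also summed over 5 promyelocyte markers (MPO, ELANE, AZU1, PRTN3 and CTSG). The sum was 2.84 to 21.3 CPM in the 8 control libraries, 421 to 603 CPM with MK-2206 and 1967 to 15830 CPM in FOXM1-KD cells. All 5 were detected in each MK-2206 and each FOXM1-KD library. With MK-2206 most of the sum was MPO, at 3888 and 3424 counts. ELANE, AZU1 and PRTN3 had 21 to 180 counts against at most 3 with DMSO in control cells. CTSG went the other way, with 43 and 36 counts in the smaller MK-2206 libraries against 200 and 196. The sum of 9 monocyte and macrophage markers was 29.8 to 233 CPM, 21.2 to 22.1 CPM and 554 to 2719 CPM in the same order. In FOXM1-KD cells with DMSO most of it was LYZ, at 10353 and 24475 counts. CD14, CSF1R and FCGR1A also had more counts there than in control cells with DMSO. ITGAM had fewer, 10 and 24 against 2290 and 1722, and the rest of the list had at most 3 in either. Library totals were 7351755 and 10330720 counts with MK-2206, with 6.68% and 18.4% mitochondrial counts, and 12621145 to 21362546 counts in the others. The libraries labelled MK-2206 and FOXM1-KD thus differed from the control libraries in what marks the cells. That all 16 libraries are the same line rests on the labels and was not tested, so each fold change of MK-2206 or FOXM1-KD below compares libraries as labelled, and the part of these differences in it was not tested. In bulk RNA, fewer cells of a kind and less RNA per cell cannot be told apart.

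In control cells given DMSO, the pathway genes fell into an abundant and a nearly silent set. Per kb of the canonical transcript, the ferritin heavy chain gene FTH1 was highest at 169 ± 28.3 CPM per kb (SD, n = 2). TXNRD1, which encodes cytosolic thioredoxin reductase, stood at 63.1 ± 1.57 CPM per kb, NFE2L2 at 54.5 ± 1.08 and KEAP1 at 41.3 ± 1.91. GCLC, the catalytic subunit of glutamate-cysteine ligase, followed at 36.6 ± 2.81 CPM per kb and its modifier subunit GCLM at 5.33 ± 0.56. The 2 KEAP1 and 2 GCLC libraries, at 40.0 and 42.7 against 34.6 and 38.5 CPM per kb, did not overlap but lay close together. Then came the quinone reductase gene NQO1 at 0.686 ± 0.23 CPM per kb and SRXN1, whose product sulfiredoxin restores oxidized peroxiredoxins, at 0.662 ± 0.14, and these neighbours overlapped. OSGIN1, an oxidative stress induced growth inhibitor, stood at 0.285 ± 0.12 CPM per kb, and HMOX1, the inducible heme oxygenase, was lowest at 0.141 CPM per kb from 4 counts in each library. The 4 low genes rest on 4 to 39 counts per library, which limits the precision of their values in DMSO.

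**Figure D1:**
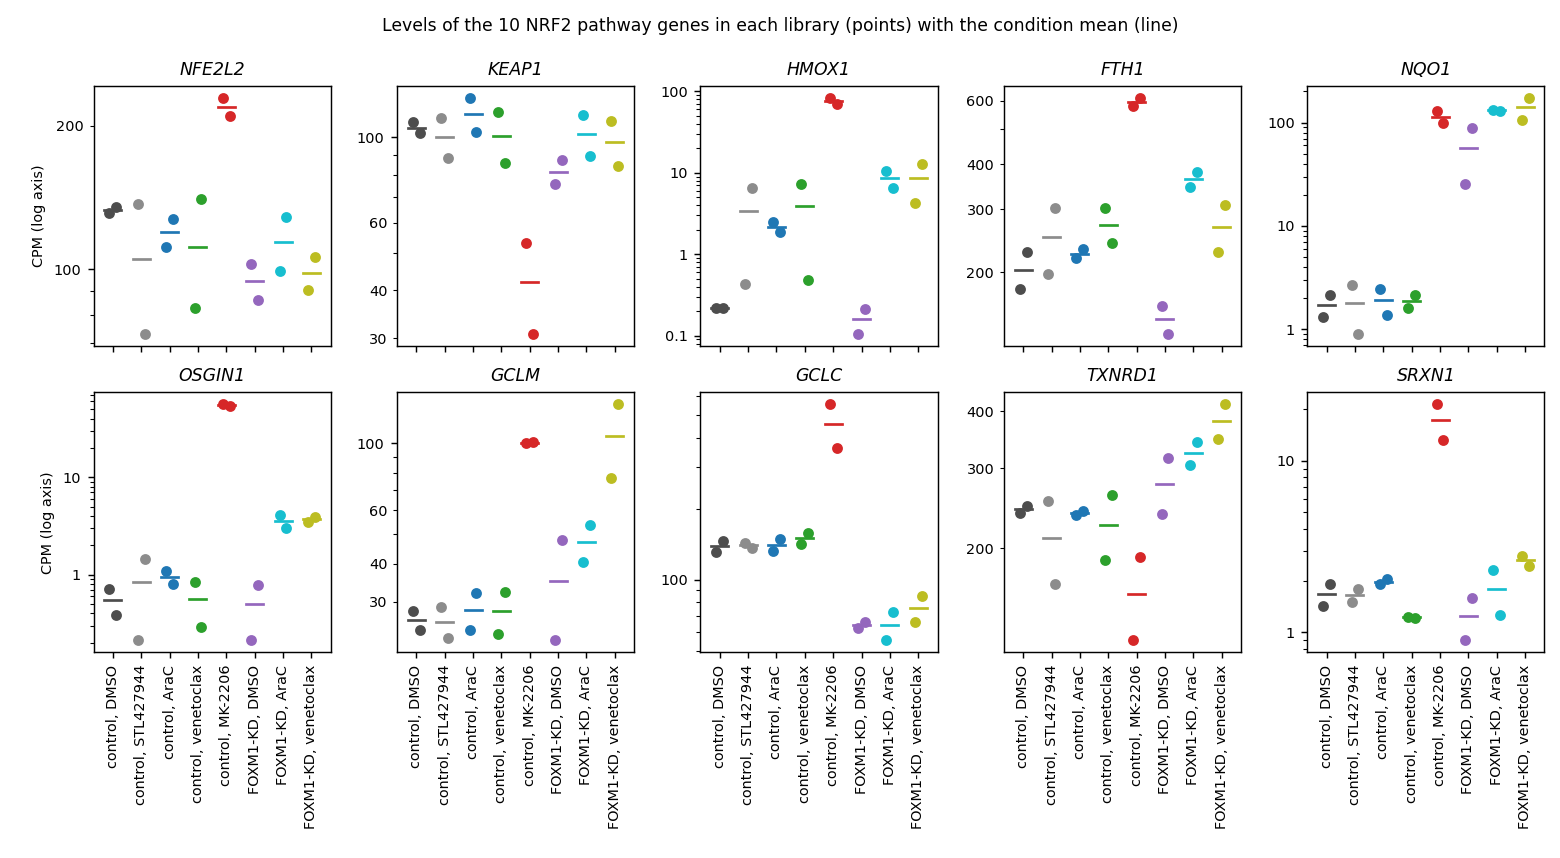
CPM on a log axis for each of the 10 genes in the 16 libraries (2 points per condition, with their mean as a line). With MK-2206, NFE2L2, HMOX1, FTH1, OSGIN1, GCLC and SRXN1 are highest and KEAP1 is lowest, NQO1 separates all FOXM1-KD from all control libraries without MK-2206, and HMOX1 differs widely between the 2 libraries of STL427944 (0.428 and 6.44 CPM) and of control cells with venetoclax (7.33 and 0.488 CPM).

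MK-2206 was compared with DMSO in control cells, and 7 of the 10 genes were higher and 1 was lower. Calls needed a change of at least 2-fold with an adjusted p under 0.1, from edgeR's quasi-likelihood test with Benjamini-Hochberg adjustment over all genes. By this rule 44% of the 28905 genes tested were called, 26% higher and 17.9% lower. The median log2 fold change was 1.90 over the 10 genes and 1.03 over all genes tested. Among 12492 expressed protein-coding genes the median was -0.29 with TMM, -0.51 with total counts and -0.18 with DESeq2's size factors, and the calls and signs below were the same under all 3 scalings.

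Of the regulators, NFE2L2 was not called and KEAP1 was lower. NFE2L2 (GRCh38 chr2:177218667-177392756, - strand) had 132 and 135 CPM with DMSO and 229 and 210 CPM with MK-2206. The MK-2206 libraries lay above both DMSO libraries, with a log2 fold change of 0.79 (SE 0.26, adjusted p = 0.00756) that stays under 2-fold. Its exons overlap those of HNRNPA3 and AGPS on the other strand, and the strand setting of the counting is not given in the sources used here. KEAP1 (chr19:10486125-10503558, - strand), the adaptor that holds NRF2 for breakdown, had 110 and 103 CPM with DMSO and 53.1 and 30.9 CPM with MK-2206. It was lower by a log2 fold change of -1.27 (SE 0.28, adjusted p = 2.55e-05), and without MK-2206 replicate 2, the library with 18.4% mitochondrial counts, the change of -0.96 no longer reached 2-fold.

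The heme, quinone and growth inhibitor genes moved the most. HMOX1 (chr22:35380361-35394214, + strand), which cleaves heme into biliverdin, carbon monoxide and iron, had 4 counts in each DMSO library and 588 and 598 with MK-2206. The 2 conditions were far apart, at 0.219 and 0.220 CPM against 84.0 and 69.1 CPM. The log2 fold change was 8.45 (SE 0.45, adjusted p = 7.52e-75), and the ratio of summed counts was 345 with a 95% exact interval of 175 to 801 that covers counting error only. OSGIN1 (chr16:83931311-83966332, + strand) had 0.713 and 0.385 CPM with DMSO and 56.3 and 54.2 CPM with MK-2206, a log2 fold change of 6.70 (SE 0.41, adjusted p = 3.5e-58). It shares exons with MLYCD on the same strand, which had 160 to 616 counts per library. Reads in the shared part may be ambiguous between these genes, and how they were counted was not tested. NQO1 (chr16:69706996-69726668, - strand), a reductase that keeps quinones from redox cycling, went from 1.32 and 2.14 CPM to 129 and 98.6 CPM, a log2 fold change of 6.09 (SE 0.36, adjusted p = 5.77e-61).

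The genes of sulfiredoxin, glutathione synthesis and iron storage rose by smaller amounts. SRXN1 (chr20:646615-653200, - strand) had 26 and 35 counts with DMSO and 150 and 115 with MK-2206 in the smaller libraries, a log2 fold change of 3.43 (SE 0.38, adjusted p = 4.34e-18). GCLM (chr1:93885199-93909456, - strand) had 510 and 439 counts with DMSO and 701 and 871 with MK-2206, again in smaller libraries, with a log2 fold change of 2.02 (SE 0.29, adjusted p = 2.68e-11). Its partner GCLC (chr6:53497341-53616970, - strand) had 131 and 146 CPM against 555 and 360 CPM. The GCLC change of 1.79 (SE 0.26, adjusted p = 3.86e-11) on the log2 scale was close to that of GCLM, so both subunits of the enzyme rose. FTH1 (chr11:61959718-61967634, - strand), which stores iron, had 179 and 228 CPM against 582 and 612 CPM, a log2 fold change of 1.62 (SE 0.25, adjusted p = 8.32e-10). The 25 FTH1 pseudogenes in the table summed to at most 94 counts in a library, and BEST1, which overlaps FTH1 on the other strand, had at most 184.

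TXNRD1 (chr12:104215779-104350307, + strand), whose product reduces thioredoxin with NADPH, was the target gene that was not called. It had 239 and 248 CPM with DMSO and 125 and 191 CPM with MK-2206. Both MK-2206 libraries were below both DMSO libraries, and the log2 fold change of -0.55 (SE 0.26, adjusted p = 0.0737) was under 2-fold. The thioredoxin gene TXN, the substrate of this reductase, was also lower, with 136 and 150 CPM against 15.3 and 39.2 CPM and a log2 fold change of -2.31 (adjusted p = 1.58e-14 by edgeR's quasi-likelihood test). TXN was chosen after its values were seen.

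**Figure D2:**
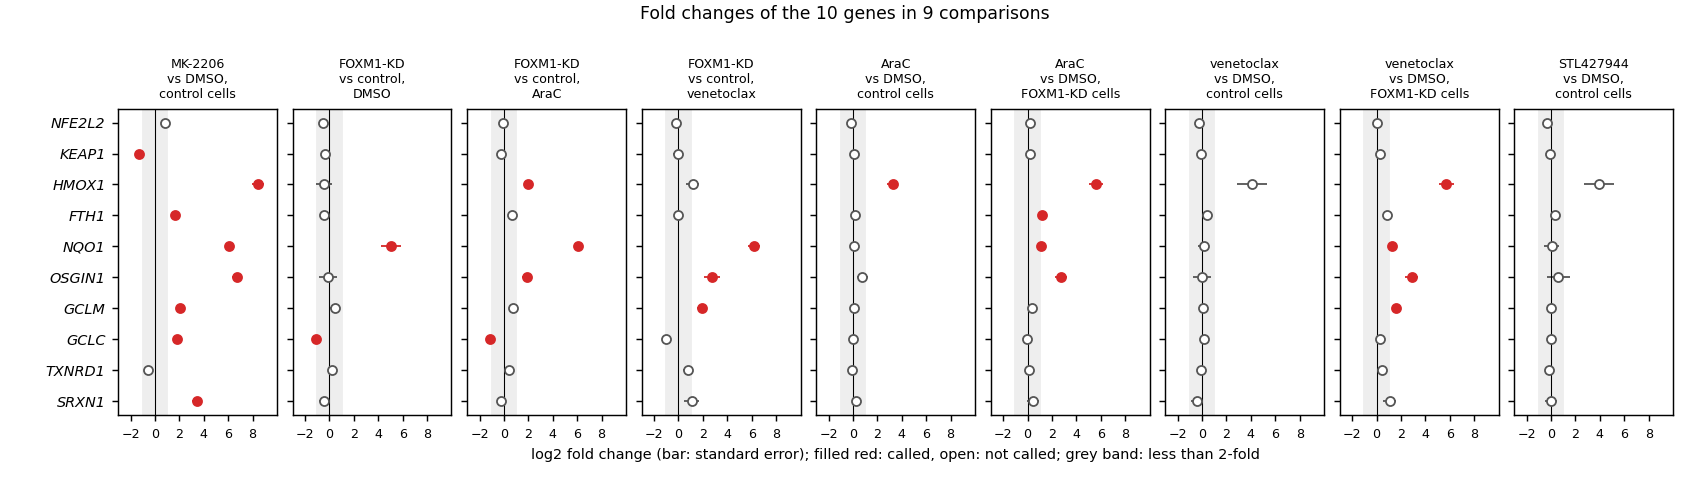
Log2 fold change of each gene with its standard error (horizontal axis, each panel 1 comparison; filled red points were called, open points were not, and the grey band marks changes under 2-fold). NQO1 is between 5.06 and 6.21 in all 3 comparisons of FOXM1-KD with control cells, HMOX1 is called with AraC in both kinds of cell, and the long bars of HMOX1 with venetoclax and STL427944 in control cells belong to pairs of libraries that differ.

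FOXM1-KD was compared with control cells under DMSO, AraC and venetoclax, and NQO1 was higher each time. With DMSO 2 of the 10 genes were called, against 25.1% of the 23274 genes tested, 11.3% higher and 13.7% lower. With AraC 4 were called, against 29.3% of 24653 genes, 15.2% higher and 14% lower. With venetoclax 3 were called, against 24.3% of 24947 genes, 10.8% higher and 13.5% lower. The median log2 fold changes of the 10 genes were -0.39, 0.52 and 0.93, and those of all genes tested were -0.03, 0.08 and 0.11.

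NQO1 had 24 to 47 counts in the 6 control libraries of these comparisons and 484 to 2920 in the 6 FOXM1-KD libraries. With DMSO the FOXM1-KD libraries had 25.6 and 89.0 CPM against 1.32 and 2.14 CPM, with AraC 134 and 130.3 against 2.43 and 1.38, and with venetoclax 106 and 174 against 1.61 and 2.15. In each case the FOXM1-KD libraries were above the control libraries, and the 2 FOXM1-KD libraries with DMSO differed most between themselves. The log2 fold changes were 5.06 (SE 0.83, adjusted p = 0.0171), 6.08 (SE 0.28, adjusted p = 1.03e-98) and 6.21 (SE 0.50, adjusted p = 2.55e-33). Without control DMSO replicate 1, the first of these was 4.76 with an adjusted p of 0.105 and was no longer called.

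GCLC was lower in FOXM1-KD cells, the opposite of its direction with MK-2206. It had 62.4 and 65.9 CPM with DMSO in FOXM1-KD cells, 55.3 and 72.8 CPM with AraC, and 65.8 and 85.2 CPM with venetoclax. All 6 of these values were below the 131 to 157 CPM of the 8 control libraries without MK-2206. The log2 fold changes were -1.10 with DMSO (SE 0.11, adjusted p = 0.00568), -1.17 with AraC (SE 0.21, adjusted p = 8.62e-08) and -0.99 with venetoclax (adjusted p = 0.0441). The last is just under 2-fold and was not called, and without FOXM1-KD AraC replicate 1 the AraC value was -0.98 and fell under 2-fold too.

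GCLM was called higher under venetoclax. It had 22.4 and 47.9 CPM in FOXM1-KD cells with DMSO, 40.4 and 53.6 CPM with AraC, and 76.7 and 135 CPM with venetoclax, against 23.5 and 32.2 CPM in control cells with venetoclax. The log2 fold change under venetoclax was 1.92 (SE 0.41, adjusted p = 2.31e-05). Under AraC it was 0.71 (adjusted p = 0.00712) and not called, and under DMSO it was 0.45 and turned to -0.22 without FOXM1-KD DMSO replicate 2.

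The number of GCLM counts per GCLC count put both subunits in 1 value for each library, as a description. It was 0.165 to 0.279 in all 10 control libraries, those with MK-2206 included. In FOXM1-KD cells it was 0.359 and 0.727 with DMSO, 0.731 and 0.737 with AraC, and 1.17 and 1.58 with venetoclax. The 6 FOXM1-KD values all lay above the 10 control values, and the 2 with venetoclax were the highest. The counts are not divided by transcript length, so the value 1 does not stand for equal numbers of molecules.

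HMOX1 and OSGIN1 were called higher in FOXM1-KD cells with AraC, and OSGIN1 with venetoclax too. With DMSO, HMOX1 had 2 and 4 counts in FOXM1-KD cells against 4 and 4, and OSGIN1 4 and 15 against 13 and 7. With AraC, HMOX1 had 10.7 and 6.53 CPM against 2.48 and 1.85 CPM in control cells, a log2 fold change of 1.95 (SE 0.29, adjusted p = 1.2e-10). OSGIN1 under AraC had 4.07 and 3.00 CPM against 1.09 and 0.808, a change of 1.86 (SE 0.35, adjusted p = 7.08e-07). The FOXM1-KD libraries were above the control libraries for both genes.

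Under venetoclax OSGIN1 had 3.49 and 3.88 CPM against 0.836 and 0.293 CPM, a log2 fold change of 2.73 (SE 0.66, adjusted p = 3.4e-04). HMOX1 under venetoclax had 4.31 and 13.0 CPM against 7.33 and 0.488 CPM, so the 2 kinds of cell overlapped. Its log2 fold change of 1.16 was not called (adjusted p = 0.106 by edgeR's quasi-likelihood test). With the replicate number as a block it was 1.64 with an adjusted p of 0.00238 and was called. The 2 numbered pairs differed in direction, however. The FOXM1-KD library was below the control library in replicate 1 and above it in replicate 2. Without the block, leaving out each library in turn gave HMOX1 log2 fold changes from 0.15 to 4.12. The change was 4.12 without control venetoclax replicate 1 and 1.74 without FOXM1-KD venetoclax replicate 1.

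The other 5 genes were not called in any of the 3 knockdown comparisons. FTH1 was at 161 and 135 CPM in FOXM1-KD cells with DMSO and at 345 and 381 CPM with AraC, against 219 and 232 CPM in control cells with AraC. The AraC difference of 0.65 on the log2 scale had an adjusted p of 9e-04 by edgeR's quasi-likelihood test but was under 2-fold. SRXN1 had 17 to 43 counts in these 12 libraries, with a log2 fold change of 1.10 under venetoclax (adjusted p = 0.236). TXNRD1 was at 238 to 415 CPM in FOXM1-KD cells, with changes of 0.40 under AraC and 0.76 under venetoclax that were under 2-fold. NFE2L2 and KEAP1 changed by -0.49 and -0.37 with DMSO (adjusted p = 0.0501 and 0.105).

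AraC was compared with DMSO in each kind of cell, and HMOX1 was higher in both. In control cells HMOX1 was the 1 gene of the 10 that was called, against 6.69% of 22842 genes, 4.52% higher and 2.17% lower. It had 48 and 39 counts with AraC and 4 and 4 with DMSO, a log2 fold change of 3.25 (SE 0.45, adjusted p = 1.42e-04). The AraC libraries were well above the DMSO libraries, and the ratio of summed counts was 9.82 with a 95% exact interval of 4.77 to 23.5. Without control AraC replicate 1 the change was 3.03 (adjusted p = 0.135) and without replicate 2 it was 3.47 (adjusted p = 0.174), so that neither was called.

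In FOXM1-KD cells 4 of the 10 genes were higher with AraC, against 11.6% of 23381 genes, 9.03% higher and 2.57% lower. HMOX1 went from 2 and 4 to 181 and 124 counts, a ratio of 53.6 with a 95% exact interval of 24.3 to 147 and a log2 fold change of 5.63 (SE 0.55, adjusted p = 4.73e-22). OSGIN1 went from 0.212 and 0.791 CPM to 4.07 and 3.00 CPM, a change of 2.72 (SE 0.49, adjusted p = 1.43e-06). FTH1 went from 161 and 135 CPM to 345 and 381 CPM, a change of 1.22 (SE 0.26, adjusted p = 5.99e-05). The AraC and DMSO libraries did not overlap for these 3 genes, which with 2 libraries on each side is a description and no test.

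NQO1 had 25.6 and 89.0 CPM with DMSO and 134 and 130.3 CPM with AraC, and its change of 1.12 (SE 0.27, adjusted p = 6.88e-04) depended on the lower DMSO library: without FOXM1-KD DMSO replicate 1 it was 0.47 and not called. DESeq2 gave an adjusted p of 0.424 for NQO1. Without either FOXM1-KD AraC library the 4 log2 fold changes lay between 1.11 and 5.93, but none was called at the adjusted p of 0.304 to 0.584 that the remaining 3 libraries gave.

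Venetoclax was compared with DMSO in the same way, with the same DMSO libraries as for AraC. In control cells edgeR's quasi-likelihood test called none of the 10 genes and 0% of 22593 genes, and DESeq2 called none of the 10 either. At an unadjusted p under 0.05 there was 1 of the 10, HMOX1, with 114 counts in replicate 1 and 10 in replicate 2, against 4 and 4 with DMSO. Its log2 fold change of 4.12 came mostly from replicate 1, and was 1.12 without that library. In the fit of all 16 libraries HMOX1 was called, with an adjusted p of 2.05e-09.

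Replicate 1 of control cells with venetoclax and replicate 2 of STL427944 stood apart from their partners in other pathway genes too. TXNIP, which encodes an inhibitor of thioredoxin, had 237 and 206 counts in these 2 libraries and 2344 to 4632 in the 6 others of control cells without MK-2206. NFE2L2 was at 83.0 and 73.2 CPM in them and at 112 to 140.1 CPM in those 6. The 2 libraries had the highest HMOX1 of the 8, at 7.33 and 6.44 CPM.

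In FOXM1-KD cells 4 of the 10 genes were higher with venetoclax, against 2.09% of 23717 genes, 1.51% higher and 0.578% lower. The median log2 fold change was 0.98 over the 10 genes and 0.08 over all genes tested. HMOX1 went from 2 and 4 to 63 and 217 counts, a ratio of 56.3 with a 95% exact interval of 25.6 to 155 and a log2 fold change of 5.73 (SE 0.60, adjusted p = 9.77e-18). OSGIN1 went from 4 and 15 to 51 and 65 counts, a change of 2.87 (SE 0.56, adjusted p = 5.93e-05). The venetoclax libraries were above the DMSO libraries for both.

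GCLM went from 22.4 and 47.9 CPM to 76.7 and 135 CPM with venetoclax in FOXM1-KD cells, a log2 fold change of 1.60 (SE 0.33, adjusted p = 1.47e-04). NQO1 went from 25.6 and 89.0 CPM to 106 and 174 CPM, a change of 1.30 (SE 0.32, adjusted p = 0.00448). The venetoclax and DMSO libraries did not overlap for either gene, again a description with 2 libraries on each side. SRXN1, at 17 and 30 against 41 and 41 counts, and FTH1, at 161 and 135 against 228 and 308.5 CPM, changed by 1.09 and 0.88 and were not called. Without FOXM1-KD DMSO replicate 1 the changes of OSGIN1, GCLM and NQO1 were 2.21, 1.15 and 0.66 and none was called, DESeq2 gave 0.948 for NQO1, and without either venetoclax library none of the 4 genes was called at adjusted p of 0.561 to 0.786.

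Whether a drug acted differently in the 2 kinds of cell was tested with an interaction term over 8 libraries. For AraC, 4 of the 10 genes were called as more strongly raised in FOXM1-KD cells, against 5.13% of 26059 genes, 3.94% higher and 1.19% lower. The differences in log2 fold change were 2.47 for HMOX1 (SE 0.86, adjusted p = 0.0723), 2.05 for OSGIN1 (SE 0.69, adjusted p = 0.0583), 1.17 for FTH1 (SE 0.25, adjusted p = 2.46e-04) and 1.10 for NQO1 (SE 0.38, adjusted p = 0.0651). Of these, FTH1 was called with DESeq2 and with a filter on low counts and the other 3 were not. In the fit of all 16 libraries none of the 4 was called, with adjusted p of 0.191 for FTH1 and 0.301 to 0.647 for the others. FTH1 was also lost without control AraC replicate 1 or 2 (adjusted p = 0.113 and 0.114) and was under 2-fold without control DMSO replicate 2 (0.99) or FOXM1-KD DMSO replicate 2 (0.91).

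For venetoclax, 1 of the 10 genes was called, against 0.743% of 26393 genes, 0.481% higher and 0.261% lower. GCLM had a difference of 1.49 (SE 0.44, adjusted p = 0.0887), and it was not called with DESeq2 (adjusted p = 0.476), with a filter on low counts (adjusted p = 1.00), in the fit of all 16 libraries (adjusted p = 0.127) or with total counts (adjusted p = 0.121). OSGIN1 had the larger difference of 2.86 with an adjusted p of 0.142, and was called in the fit of all 16 libraries (adjusted p = 0.0578) and without FOXM1-KD DMSO replicate 2. HMOX1, the gene most raised by venetoclax in FOXM1-KD cells, had a difference of 1.61 and was not called (adjusted p = 0.99987 by edgeR's quasi-likelihood test). Leaving out each library in turn gave HMOX1 differences from 0.61 to 4.59, the highest without control venetoclax replicate 1.

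STL427944 was compared with DMSO in control cells, and edgeR's quasi-likelihood test called none of the 10 genes and 0% of 22672 genes. DESeq2 called none of the 10. At an unadjusted p under 0.05 there was 1, HMOX1, with 8 counts in replicate 1 and 93 in replicate 2. Its change was 3.94 on the log2 scale, 0.93 without replicate 2 and 4.86 without replicate 1, where it was called (adjusted p = 0.0874). OSGIN1 likewise had 4 counts in replicate 1 and 21 in replicate 2, against 13 and 7 with DMSO. NQO1 went the other way, with 50 counts in replicate 1 and 13 in replicate 2. The 2 libraries therefore disagreed on the direction of OSGIN1 and NQO1, while GCLC, at 143 and 137 CPM, lay within its DMSO range of 131 to 146 CPM.

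**Figure D3:**
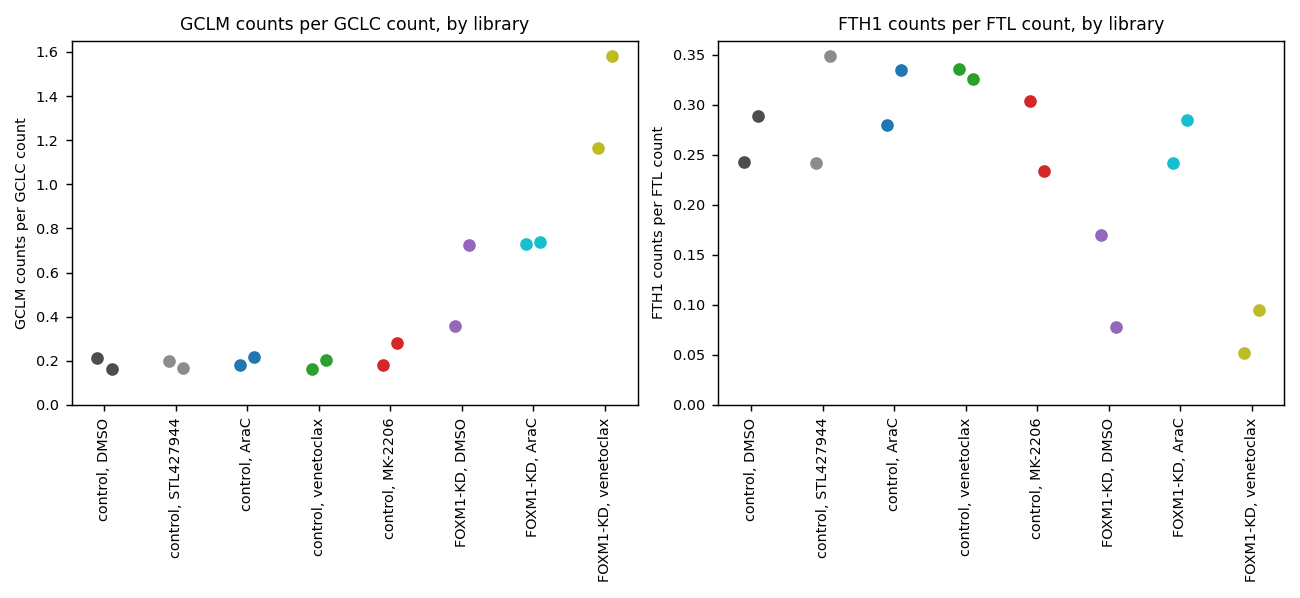
Counts of GCLM per count of GCLC (left) and of FTH1 per count of FTL (right) in each of the 16 libraries, 2 points per condition, on axes that start at 0. All 6 FOXM1-KD libraries lie above the 10 control libraries on the left. On the right, FOXM1-KD libraries are at 0.0525 and 0.0948 with venetoclax and at 0.1698 and 0.0775 with DMSO. With AraC they are at 0.2415 and 0.2849, and control cells are at 0.234 to 0.349.

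Ferritin is built of heavy chains, from FTH1, and light chains, from FTL, which was chosen after its values were seen. FTL had 13494 and 14318 counts in control cells with DMSO, 17974 and 33029 in FOXM1-KD cells with DMSO, and 63544 and 54495 in FOXM1-KD cells with venetoclax. The last were the highest of the 16 libraries. FTL rose in FOXM1-KD cells with venetoclax by 1.51 on the log2 scale (adjusted p = 3.47e-06 by edgeR's quasi-likelihood test), while FTH1 changed by 0.88 and was not called. With AraC in FOXM1-KD cells the reverse was seen, FTH1 being called and FTL, at 24238 and 25397 counts, being at -0.04. With MK-2206 both chains rose by nearly the same amount, 1.62 for FTH1 and 1.64 for FTL (adjusted p = 3.86e-12).

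A further 95 genes of the pathway and its neighbours, listed by role without regard to direction, gave the setting. With MK-2206 24 of them were higher and 29 lower of 90 tested, with a median log2 fold change of -0.21, and 54.6% of the 17653 protein-coding genes tested were called. By role, 9 of the 19 detoxification genes tested were higher and 4 lower, and 5 of 14 regulators of NRF2 were higher and 3 lower. Of the 13 thioredoxin and peroxiredoxin genes 1 was higher and 8 were lower, and of 16 heme and iron genes 1 was higher and 7 were lower. Of those called and not low in any library (10 counts or more), the ones that rose most were MAFF, a small MAF partner of NRF2 (7.70), UGDH, which makes UDP-glucuronate (5.13), and the epoxide hydrolase gene EPHX1 (4.78). Those that fell most were the heme transporter gene SLC48A1 (-3.56) and the peroxiredoxin genes PRDX2 (-3.0) and PRDX3 (-2.89). Larger changes in both directions lay outside this ranking, in genes with fewer than 10 counts in some library. Among the regulators, and chosen after their values were seen, NFE2 went from 1399 and 1623 counts with DMSO to 2 and 0 with MK-2206. BACH2 went from 0 and 0 to 1696 and 1755 counts.

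In FOXM1-KD cells with DMSO 21 genes were higher and 17 lower of 87 tested, against 29.6% of protein-coding genes called, always relative to control cells with the same agent. With AraC 21 were higher and 14 lower of 90 tested, against 33.7%, and with venetoclax 28 and 10 of 89, against 30.4%. Of the 6 genes of NADPH supply 5 were higher under venetoclax, among them PGD of the pentose phosphate pathway (log2 fold change 1.34), which was chosen after its values were seen. Named by size of change, the catalase gene CAT was higher by 2.35 with DMSO and 3.07 with venetoclax, and the pirin gene PIR by 2.50, 4.14 with AraC and 3.57. The ferroportin gene SLC40A1, for iron export, was lower by -4.08 with DMSO and -4.07 with AraC, and CHAC1, which degrades glutathione, by -4.69 with DMSO and -5.22 with venetoclax. NFE2, an erythroid relative of NFE2L2, was lower by -3.78 with DMSO and -3.27 with venetoclax. UGDH was higher by 2.31 with DMSO, and GSTM3 and PTGR1, for glutathione conjugation and reduction of reactive aldehydes, by 5.11 and 3.58 with AraC. MGST1, a microsomal glutathione transferase, was higher by 2.56 with venetoclax, the glutathione transferase gene GSTA4 lower by -3.64 with AraC, and SESN1, a sestrin, lower by -2.69 with AraC and -3.22 with venetoclax. An agent is given where the gene ranked, and the changes were not particular to it. By condition means, each gene named by size leaned the same way with DMSO, AraC and venetoclax. UGDH was at 62.7, 52.0 and 79.1 CPM in FOXM1-KD cells in that order, against 12.7, 15.8 and 15.4 CPM. SESN1 was at 9.69, 12.6 and 9.16 CPM against 91.9, 79.5 and 85.5 CPM.

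AraC and venetoclax were each compared with DMSO in the same kind of cell. With AraC 4 of 84 genes tested were higher and 1 lower in control cells, against 8.16% of protein-coding genes called, and 14 and 2 of 89 in FOXM1-KD cells, against 14.3%. In control cells these included EPHX1 (1.41), GGT1, which begins glutathione recycling (1.09), and CHAC1 (-1.27). In FOXM1-KD cells the largest were the carbonyl reductase gene CBR3 (2.64), MAFF (2.40) and GGT1 (1.96), with the transferrin receptor gene TFRC (-1.57) and the export pump gene ABCC2 (-1.71) lower. With venetoclax in FOXM1-KD cells 9 of 88 were higher and 2 lower, against 2.84% of protein-coding genes called, with SLC48A1 (1.83) and NQO2 (1.54) among those higher and BACH2 (-1.60) and TXNIP (-1.29) the 2 lower. In control cells edgeR's quasi-likelihood test called none of the 95 with venetoclax or STL427944, 5 and 6 having an unadjusted p under 0.05, and DESeq2 called none.

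**Figure D4:**
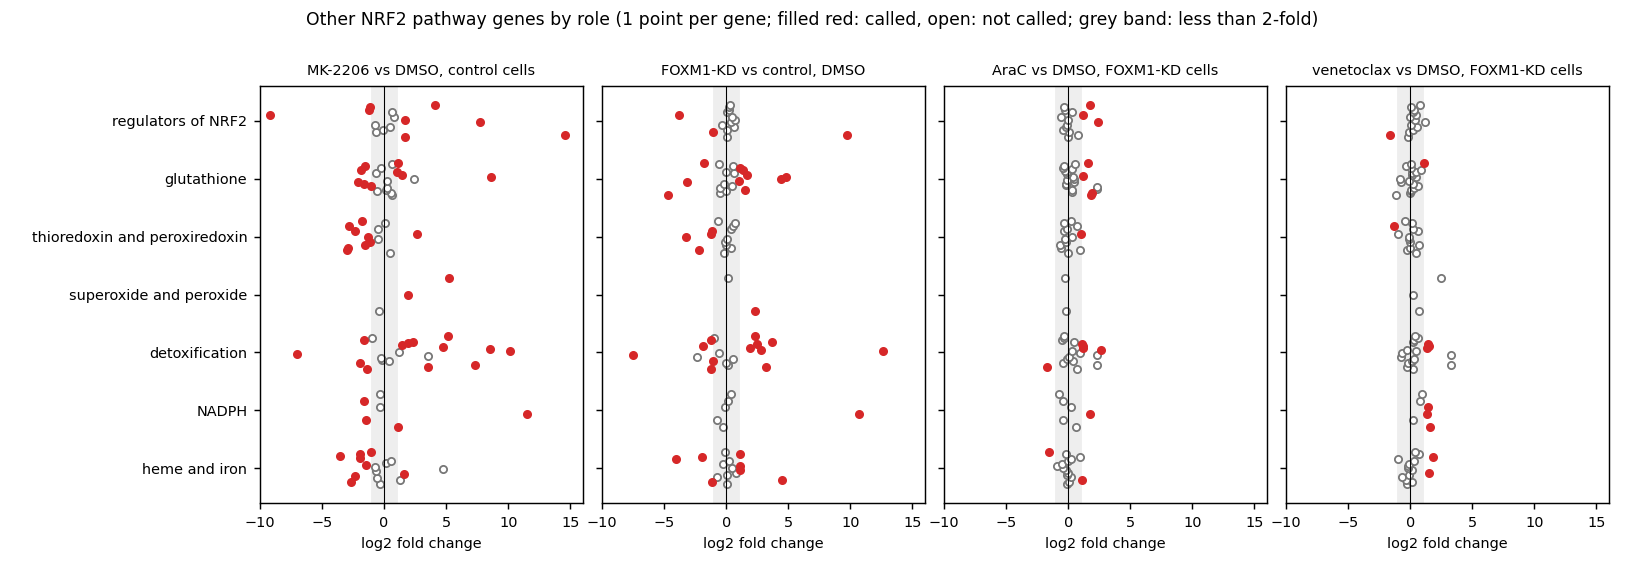
Log2 fold change of the other pathway genes by role (1 point per gene and panel; filled red points were called, open points were not, and the grey band marks changes under 2-fold). With MK-2206 most thioredoxin and peroxiredoxin genes lie below 0 while 9 detoxification genes are called higher, and with venetoclax in FOXM1-KD cells 3 of the 6 NADPH genes are called higher.

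Over the 8 condition means, HMOX1 had the widest range of the 10 genes, 6.06 in log2(CPM + 1), and NFE2L2 the narrowest, 1.21. Between pairs of the 10 genes the Pearson correlation over the 8 means was highest for OSGIN1 and SRXN1 (0.963), FTH1 and HMOX1 (0.957) and OSGIN1 and HMOX1 (0.952). It was lowest for SRXN1 and KEAP1 (-0.904) and TXNRD1 and GCLC (-0.901), and for GCLM and GCLC it was 0.203. Among 9585 protein-coding genes, those whose pattern was most like that of HMOX1 were RHOB (0.976), SMOX (0.970) and SGK1 (0.966). These values describe 8 points that share scaling and in which the MK-2206 condition is far from the rest.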

How the data were processed

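The study sequenced ribosome-depleted total RNA of 16 libraries labelled KG-1. The authors deposited 1 table of raw, unscaled counts on genes. According to the study's methods, STAR aligned the reads to hg38 and featureCounts assigned them to Ensembl genes. The methods name a stranded kit with molecular identifiers, the sample labels name another stranded kit, and neither the use of the identifiers nor the strand setting of the counting is given in the sources used here, so counts were taken as reads and intervals cover counting error only. Totals ran from 7351755 to 21362546 counts, and genes with few counts were measured least precisely in the MK-2206 libraries.

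The quasi-likelihood functions of edgeR 4.0.16 (R 4.3.3) were used after TMM scaling, on the 4 libraries of each comparison or 8 for an interaction. Every gene with a minimum of 1 count entered, with Benjamini-Hochberg adjustment and a prior count of 0.125 in fold changes. Calls needed 2-fold and an adjusted p under 0.1, as in the study, which places the adjusted p in a test across groups; that form was an alternative. SE are the log2 fold change divided by the root of F. All 10 genes are named; other pathway genes are named if, among called genes with 10 or more counts in each library compared, they were the 3 with the largest rise or the 3 with the largest fall, and the naming of any further gene followed a look at its values. A gene that this rule selects is not reported here by name. The members, lists and tests were chosen with earlier results of these data known. Of 96 other pathway genes listed, 95 matched the table. CPM levels use TMM over all 16 libraries, and levels per kb use the canonical transcript of GENCODE release 44. The test was tried on simulated counts first.

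Alternatives were filterByExpr, DESeq2 1.42.0, DESeq2's size factors in edgeR, total counts, 1 fit of all 16 libraries, a prior count of 2, the adjusted p across all 8 groups, omission of each library in turn, and a block for the replicate number. The labels number the MK-2206, AraC and venetoclax libraries. Same-numbered libraries deviated together from their group means, with correlations of 0.481 to 0.791 over 11818 genes in all 10 pairs of groups, so the numbers pair these samples; the DMSO and STL427944 libraries carry none. In each condition the replicates differed by more than counting noise. Statements that libraries overlap or lie apart describe the printed values, and the share of all genes that lie apart in this way was not counted. Figures were drawn with matplotlib 3.10.9 in Python 3.11.15.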

Additional observations from a re-analysis of the deposited data

Results flagged for a closer look

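In 5 instances the effect of a drug on a gene of the pathway differed between FOXM1-KD and control cells by a test of the difference itself, an interaction term in edgeR's quasi-likelihood test over 8 libraries. For AraC the difference in log2 fold change, FOXM1-KD minus control, was 2.47 for HMOX1, 1.17 for FTH1, 1.10 for NQO1 and 2.05 for OSGIN1. For venetoclax it was 1.49 for GCLM. Each of these 5 calls was lost in the fit of all 16 libraries, and those of HMOX1, NQO1, OSGIN1 and GCLM also with DESeq2 and with a filter on low counts.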

How the results depend on the processing

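With 2 libraries in each condition, leaving out 1 leaves a lone library that is assumed to vary like the others. Genes called without each library in turn numbered 7 to 8 of the 10 for MK-2206 against DMSO; 1 to 2, 3 to 4 and 3 to 5 for FOXM1-KD against control with DMSO, AraC and venetoclax; 0 to 1 and 0 to 4 for AraC against DMSO in control and FOXM1-KD cells; 0 and 0 to 4 for venetoclax; 0 to 1 for STL427944; and 0 to 3 for either interaction. For the other pathway genes the same numbers were 45 to 55; 25 to 40, 35 to 37 and 25 to 37; 0 to 7 and 0 to 18; 0 and 0 to 7; 0 to 18; and 3 to 12 for the AraC and 0 to 3 for the venetoclax interaction. Signs turned for genes that had not been called: GCLM to -0.22 (FOXM1-KD against control with DMSO, lowest, highest 0.86), -0.12 (AraC in FOXM1-KD cells, highest 1.00) and -0.11 (AraC interaction, highest 0.85); SRXN1 to -0.041 (AraC in FOXM1-KD cells, highest 0.90); NFE2L2, FTH1 and OSGIN1 with STL427944 to 0.028 (lowest -0.83), -0.045 (highest 0.60) and -1.34 (highest 1.42); and NFE2L2 to -0.0027 (venetoclax interaction, highest 0.74).

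With all 16 libraries in one fit, 1 of the 10 genes, HMOX1, and 1 of the others were called for venetoclax in control cells, 1 and 3 for STL427944, and 0 of the 10 for the AraC interaction. With the adjusted p across all 8 groups these numbers were 1 and 4, and 1 and 6, and 5 of the 10 were called for FOXM1-KD against control with venetoclax. The interaction with AraC had 1 of the 10 with DESeq2 and 1 with filterByExpr, and 6 of the others with filterByExpr; that with venetoclax had 0 of the 10 with DESeq2, filterByExpr or total counts, and 2 and 0 of the others with DESeq2 and filterByExpr. The cause of these changes was not tested. With the replicate number as a block, 4 of the 10 genes were called for FOXM1-KD against control with AraC and 4 with venetoclax. HMOX1 was gained with venetoclax at 1.64, although its 2 numbered pairs differed in direction. No other call of the 10 changed, and the unnumbered DMSO and STL427944 libraries allow no block. The calls for MK-2206 were the same under every alternative except the loss of KEAP1 without replicate 2. With 4 counts per library, HMOX1 in DMSO is the value that depth limits most.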
